A study of Mus musculus with 20 samples.

Results

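The CXC chemokines examined here are 10 mouse genes, Cxcl1, Cxcl2, Cxcl5, Ppbp (listed on the array as Cxcl7), Pf4 (listed as Cxcl4), Cxcl9, Cxcl10, Cxcl12, Cxcl14 and Cxcl16. Their probes were taken by gene name from a single-colour whole mouse genome array, where they are 10 of 27962 gene names and have 12 of 41174 probes, and 11 of these were among the 26063 probes bright enough to test. Whole tracheas came from 4 groups of 5 mice, aged 4 months by the labels and within a wider adult range by the study's methods: uninjured wild-type C57/Bl6, uninjured Myd88KO, and both genotypes 3 days after 2% polidocanol, a detergent that strips the tracheal epithelium. Myd88KO mice lack Myd88 in all tissues. They had been backcrossed to the wild-type strain but were bred as a line of their own, so genotype and colony cannot be told apart. Whole trachea holds epithelium, glands, cartilage, vessels and blood cells together, so that fewer cells of a type and less RNA per cell cannot be told apart in any value below. Throughout, a level is the log2 intensity of a probe minus that array's 75th percentile, values of a group are listed in the order of replicates 1 to 5, and a probe was called when its Benjamini-Hochberg adjusted p by limma was under 0.01.

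CXC chemokines are small secreted proteins whose first pair of conserved cysteines is separated by another residue, and they act on G protein-coupled receptors to direct the movement of leukocytes. Members that carry a glutamate-leucine-arginine motif before these cysteines, such as Cxcl1, Cxcl2, Cxcl5 and the processed form of Ppbp, attract neutrophils through Cxcr2. Cxcl9 and Cxcl10 are induced by interferons and attract activated T cells and NK cells through Cxcr3, whereas Cxcl12 acts through Cxcr4 and helps to retain progenitors and leukocytes in tissue. Pf4 is stored in platelet granules and binds heparin, and Cxcl16 is made as a membrane-anchored ligand of Cxcr6. Myd88 is the adaptor that carries signals from the interleukin-1 receptor family and most Toll-like receptors to NF-kB, and NF-kB sites in the promoters of Cxcl1, Cxcl2 and Cxcl10 are textbook targets of this pathway.

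By the positions given in the files, whose genome build is not stated, 5 of the probes lie close together on chromosome 5, in the order Cxcl5 (chr5:90732453-90732512), Ppbp (chr5:90741218-90741277), Pf4 (chr5:90744523-90744582), Cxcl1 (chr5:90882059-90882118) and Cxcl2 (chr5:90894748-90894807). Cxcl9 (chr5:92310412-92310471) and Cxcl10 (chr5:92334002-92334061) are neighbours further along the same chromosome, while the probes of Cxcl12, Cxcl14 and Cxcl16 lie on chromosomes 6, 13 and 11. Which part of its transcript each probe covers was not determined.

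Promoters were read from RefSeq windows on GRCm38.p6 that run from 250 bases before to 50 bases after each gene start, and 8 of the 10 genes matched an entry. Cxcl5 and Cxcl16 had no entry in the table used. Windows were searched on both strands for an NF-kB motif, GGGNNNTTCC, and for an interferon-stimulated response element, GAAANNGAAA. The NF-kB motif was found in 3 of the 8 windows (Cxcl1, Cxcl2 and Cxcl10) and in 5.56% of 32851 windows of the same length. The interferon element was found in 2 of the 8 (Cxcl10 and Cxcl14) and in 3.44% of all windows. The lines that follow show the 100 bases before the start of Ppbp and Pf4, whose probes were called after injury, and of Cxcl1 and Cxcl2, the neighbouring NF-kB target genes. Cxcl10, which holds both motifs, is shown from 220 to 91 bases before its start. All are written 5′ to 3′ on the strand of the gene with motif matches in capitals (overlapping matches on opposite strands run together). They lie at chr5:90768418-90768517 for Ppbp, chr5:90772335-90772434 for Pf4, chr5:90891145-90891244 for Cxcl1 and chr5:90903799-90903898 for Cxcl2, on the plus strand, and at chr5:92348980-92349109 on the minus strand for Cxcl10.
Ppbp: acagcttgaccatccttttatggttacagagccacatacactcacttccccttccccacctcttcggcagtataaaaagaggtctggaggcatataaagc
Pf4: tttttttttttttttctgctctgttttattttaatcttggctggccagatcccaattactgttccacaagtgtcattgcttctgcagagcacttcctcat
Cxcl1: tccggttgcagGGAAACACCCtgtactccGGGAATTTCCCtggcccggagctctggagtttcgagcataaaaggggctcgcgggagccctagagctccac
Cxcl2: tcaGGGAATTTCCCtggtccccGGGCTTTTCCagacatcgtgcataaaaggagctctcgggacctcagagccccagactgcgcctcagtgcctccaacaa
Cxcl10: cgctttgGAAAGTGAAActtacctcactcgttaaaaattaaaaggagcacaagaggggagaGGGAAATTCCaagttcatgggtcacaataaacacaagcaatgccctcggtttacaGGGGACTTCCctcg
In the Ppbp and Pf4 windows neither set of letters occurred, whereas the Cxcl1 and Cxcl2 windows hold the same 10 bases, GGGAATTTCC, 71 and 97 bases before the start.

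Each slide carried 1 array of every group and held arrays of the same replicate number. Slides 2, 3 and 4 (12 arrays) were scanned on 1 day and slides 1 and 5 (8 arrays) on another, which are called scanning days 1 and 2. Between 57.5% and 67.8% of spots per array were well above background, the lowest share being in injured Myd88KO replicate 5. The targeted gene was checked in every sample. Myd88 itself was at 1.94 to 2.28 in wild-type tracheas before and 2.36 to 2.80 after injury, and at 1.60 to 2.04 in Myd88KO before and 1.54 to 2.09 after. It differed between genotypes after injury (-0.77, SE 0.14, adjusted p = 0.00824) but not detectably before (-0.21, SE 0.14, adjusted p = 1.00), and whether its probe lies outside the deleted part is not stated, so that it does not check the labels. Injury itself was read from Scgb1a1, the Clara cell secretory protein, which stood at 6.98 to 8.25 on the 10 uninjured arrays and at -1.16 to -0.08 on the 5 injured wild-type arrays. On the injured Myd88KO arrays it was at 4.79 in replicate 1, -0.84 in replicate 2, 2.72 in replicate 3 and 0.18 in replicate 4, and its spot was an outlier in replicate 5. In this gene injured Myd88KO tracheas were thus less uniform (SD 2.54) than injured wild-type tracheas (SD 0.50). Member probes went both ways. The SD was 0.51 in injured wild-type and 3.1 in injured Myd88KO for Ppbp, but 2.01 and 1.27 for Cxcl1. For tested member probes, differences that rest on injured Myd88KO arrays are also given by scanning day where the 2 days pointed in opposite directions. A fit on 1 day has only 1 array per group from each slide of that day, and day 2 has only slides 1 and 5. The split by day was chosen after the data were seen, so its adjusted p values are descriptive.

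Injury in wild-type tracheas was the comparison in which CXC chemokines were called. Of the 11 tested probes 2 were called, Ppbp and Pf4, both higher, where 5.26% of all tested probes were called and 3.24% were called higher. Unadjusted p was under 0.05 for 5 of the 11, all higher (26.4% of all probes, 14.5% higher), and the groups did not overlap for 2, both above the controls (12.6% of all probes, 7.89% above and 4.68% below). The median difference over the member probes was 0.74 on the log2 scale, against 0.00 over all tested probes, and 10 of the 11 values were positive.

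In Myd88KO tracheas, injury gave no call among the 11 probes (0.376% of all probes were called). Unadjusted p was under 0.05 for 3 of them, 1 higher and 2 lower (19.5% of all probes, 7.32% higher), no probe was free of overlap between the groups (3.45% of all, 1.15% above and 2.3% below), and the median was -0.13 against -0.07 over all probes. Between the uninjured genotypes there was also no call (background 0.384%), with unadjusted p under 0.05 for 2 probes, 1 in each direction (5.59% of all probes, 3.82% higher and 1.77% lower), and with 1 probe, Cxcl5, whose groups did not overlap (2.51% of all, 1.71% above and 0.806% below). Between the injured genotypes 0 probes were called (background 0.38%), although all 11 differences were negative, with a median of -0.84 against -0.03 over all probes. Unadjusted p was under 0.05 for 6 of these, all lower in Myd88KO, where 12.5% of all probes had such a p and 8.09% were lower, and the groups overlapped for all 11 (1.96% of all probes had no overlap). The test of the difference between the 2 injury responses called none of the 11 probes and 0 of all 26063 by limma. Here 3 member probes had an unadjusted p under 0.05, all lower (10.4% of all probes, 6.96% lower), with a median of -1.03 against -0.09. Since the comparisons share groups, these counts are not independent of each other.

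**Figure D1:**
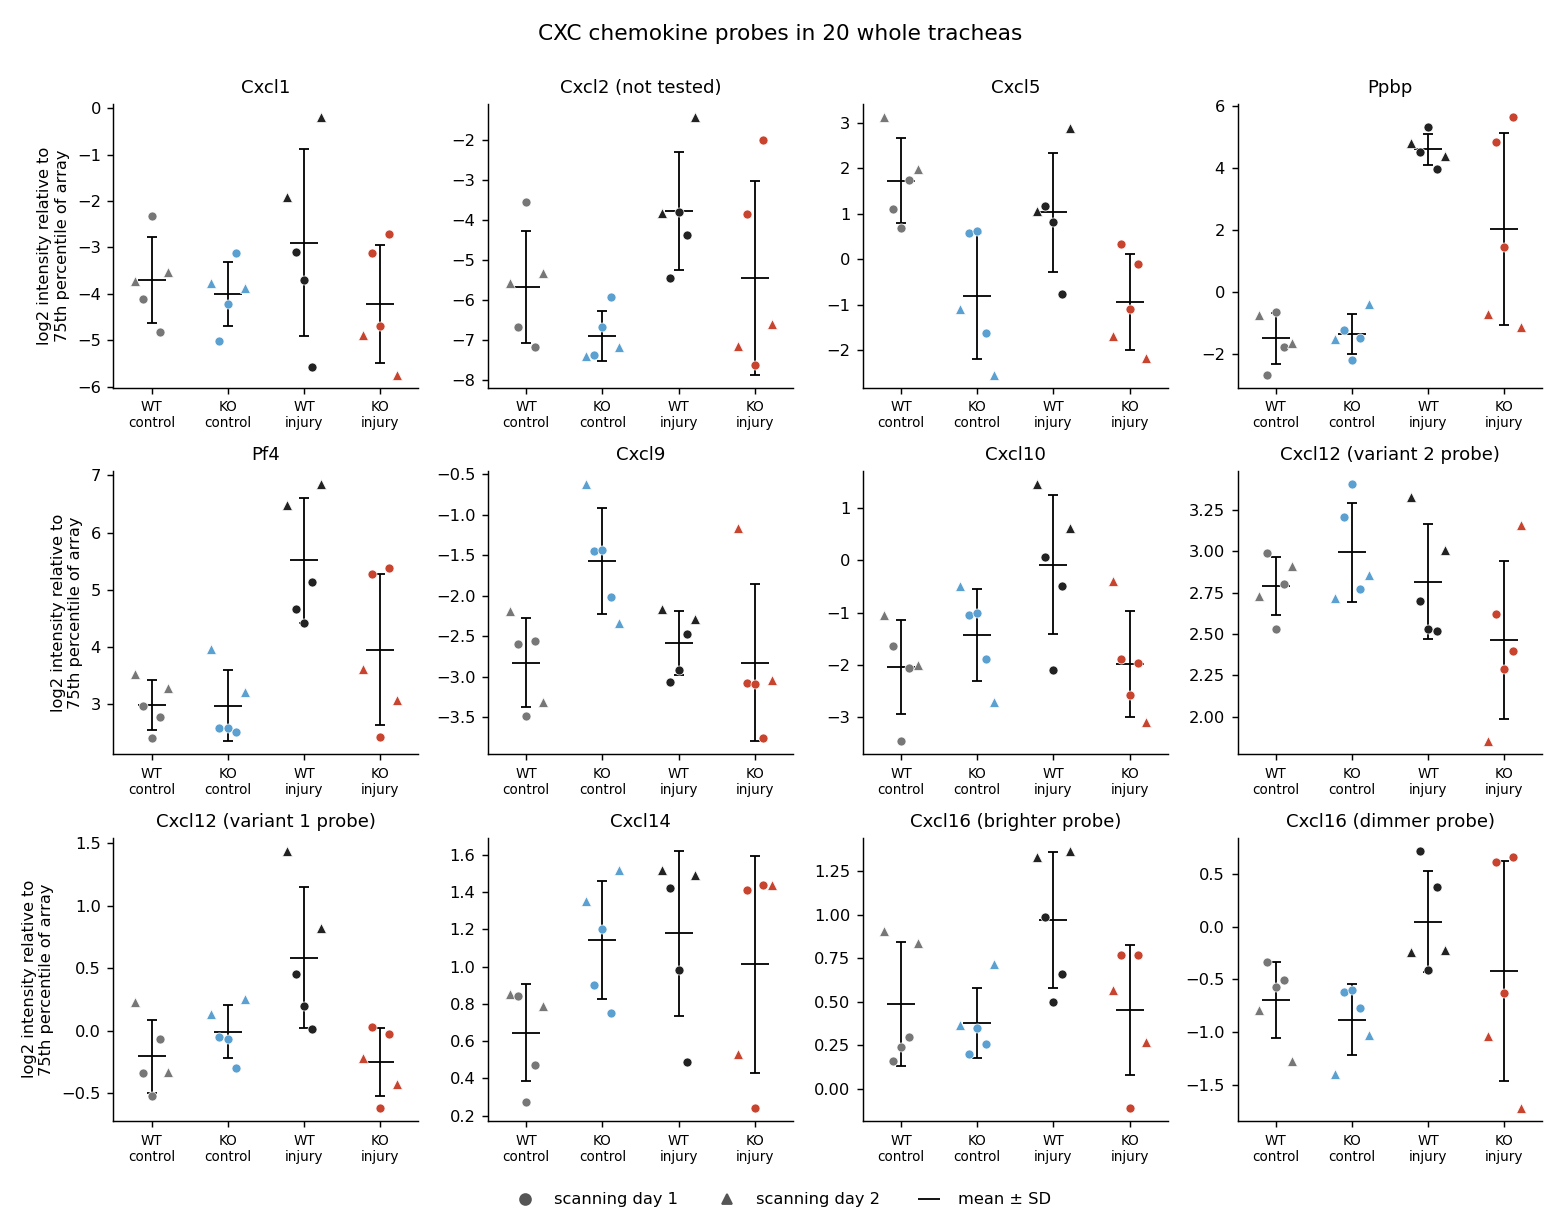
Level of each of the 12 CXC chemokine probes (log2 intensity relative to the 75th percentile of the array, vertical axis) in the 4 groups of 5 tracheas; circles and triangles are arrays of scanning days 1 and 2, bars the mean ± SD. Ppbp on the 5 injured wild-type arrays lies between 3.96 and 5.32, above all 10 uninjured arrays, whereas the injured Myd88KO arrays run from -1.13 to 5.63.

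**Figure D2:**
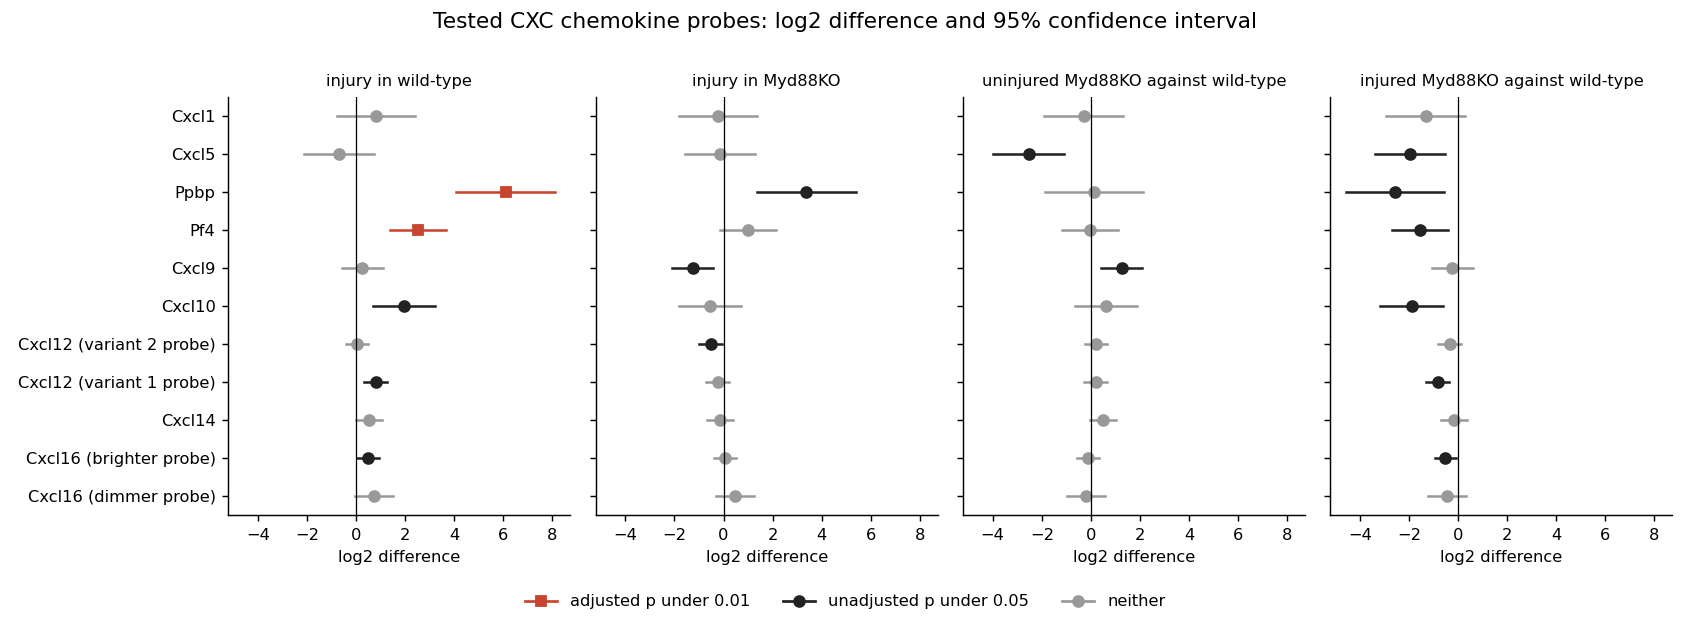
Difference in level (log2, horizontal axis) with its 95% confidence interval for the 11 tested probes in 4 comparisons; red squares are called, black circles have an unadjusted p under 0.05, grey circles neither. Ppbp and Pf4 after injury of wild-type tracheas are the called values, and all 11 points of the right-hand panel lie below 0.

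Ppbp, platelet basic protein, gave the largest difference of the member probes. Its levels were -0.77, -2.68, -0.66, -1.79 and -1.65 in uninjured wild-type tracheas, and 4.8, 4.49, 5.32, 3.96 and 4.36 after injury. All 5 injured arrays lay far above all 5 controls, and their spread (SD 0.51) was smaller than that of the controls (SD 0.82). The difference was 6.10 (SE 0.96; 68.4-fold), with an adjusted p of 0.000733. It was 5.57 to 7.17 within the 5 slides, 6.30 on scanning day 1 and 5.79 on day 2, and the call was kept under every alternative tried.

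In uninjured Myd88KO tracheas Ppbp was at -1.53, -1.25, -2.20, -1.50 and -0.39, a difference from wild-type of 0.14 (SE 0.96; 95% interval -1.87 to 2.14). After injury the Myd88KO arrays stood at -0.71, 4.81, 1.45, 5.63 and -1.13. Replicates 2 and 4 were above the injured wild-type arrays of their slides, replicate 3 was in between, and replicates 1 and 5 were within the range of the uninjured arrays. The injury difference in Myd88KO was 3.38 (SE 0.96; 10.4-fold), with an adjusted p of 0.0586, and without replicate 5 of injured Myd88KO it became 4.17 with an adjusted p of 0.00573, a call. On day 1 arrays alone it was 5.61 (adjusted p = 0.00372) and on day 2 arrays alone 0.04 (adjusted p = 0.98).

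Set against each other after injury, the genotypes gave a Ppbp difference of -2.58 in Myd88KO (SE 0.96; adjusted p = 0.257), which was not called. The value was -0.63 on day 1 (adjusted p = 0.804) and -5.50 on day 2 (adjusted p = 0.00115). Within day 1 it was 0.32 on slide 2, -3.87 on slide 3 and 1.67 on slide 4. The difference between the injury responses was -2.71 (SE 1.36; adjusted p = 0.50), with -0.69 on day 1 and -5.75 on day 2, so that it was largest on slides 1 and 5. Whether scanning day, slide or the mice themselves set these arrays apart was not tested.

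Pf4, platelet factor 4, was the other called member. Levels in uninjured wild-type tracheas were 3.54, 2.97, 2.41, 2.78 and 3.28, and those after injury were 6.48, 4.66, 4.43, 5.14 and 6.85. The lowest injured array was above the highest control, and the replicates on day 2 were the highest of the injured arrays. The difference of 2.52 (SE 0.55; 5.72-fold) had an adjusted p of 0.00534, close to the threshold. It was above 0 on 5 of 5 slides (1.69 to 3.57), but the call was lost on day 1 arrays alone (2.02, adjusted p = 0.0506), while it held on day 2 (3.26, adjusted p = 0.00225). Leaving out uninjured wild-type replicate 2, 3, 4 or 5 or injured wild-type replicate 1 or 5 also took the adjusted p above the threshold (0.0102 to 0.0177), with differences of 2.18 to 2.59.

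Myd88KO tracheas had Pf4 levels of 3.96, 2.59, 2.59, 2.52 and 3.22 when uninjured and 3.62, 5.28, 2.44, 5.38 and 3.07 after injury. As for Ppbp, replicates 2 and 4 stood apart from the others, and here they were above all 5 uninjured Myd88KO arrays while replicate 3 was below all of them. The difference was 0.98 (SE 0.55; 95% interval -0.16 to 2.13; adjusted p = 0.336), with 1.80 on day 1 (adjusted p = 0.079) and -0.24 on day 2 (adjusted p = 0.806). Injured Myd88KO differed from injured wild-type by -1.55 (SE 0.55; adjusted p = 0.233), with -0.38 on day 1 (adjusted p = 0.828) and -3.32 on day 2 (adjusted p = 0.00176).

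Because both genes are named for platelets, a list of 10 platelet and megakaryocyte markers was read beside them. Of the 7 tested, 1 was called after injury of wild-type tracheas, Treml1, a receptor of platelet granules, and it was lower (-1.53, SE 0.36; adjusted p = 0.00889), where 2.03% of all probes were called lower. Unadjusted p was under 0.05 for 3 that were higher, Itgb3, Gp9 and Clec1b (14.5% of all probes), and for 1 that was lower, Treml1 (11.9%). Clec1b, the platelet receptor for podoplanin, was well above background on 1 of 5 uninjured and 5 of 5 injured wild-type arrays, so that its fitted difference of 1.91 (SE 0.48; adjusted p = 0.0127) is set against a group mostly near background. The median of the 7 was 0.34. Gp1ba, Gp5 and Gp6, platelet glycoproteins, were well above background on 0, 2 and 1 of the 20 arrays. The summed linear level of the 10 markers was 1.99 to 3.00 in uninjured and 2.83 to 4.29 in injured wild-type tracheas, and 2.86 to 3.26 in uninjured and 2.14 to 3.87 in injured Myd88KO tracheas. The sums of the injured Myd88KO arrays were 2.14, 3.87, 2.43, 3.85 and 2.44, but Itgb3, an integrin that other cells also make, gave 64.4% to 85.3% of the sum over the 20 arrays. On the same arrays the single markers had no common order of replicates. Treml1 was at -1.61, -3.46, -3.23, -3.06 and -1.31, highest in replicates 1 and 5, whereas Clec1b was at -2.86, -2.73, -4.89, -2.50 and -4.37, highest in replicates 2 and 4 as was Ppbp. Itga2b, the platelet integrin chain, was at -4.67, -2.88, -3.53, -3.91 and -4.35, highest in replicate 2 and lowest in replicates 1 and 5. The part of platelets in the Ppbp and Pf4 values was not tested.

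**Figure D3:**
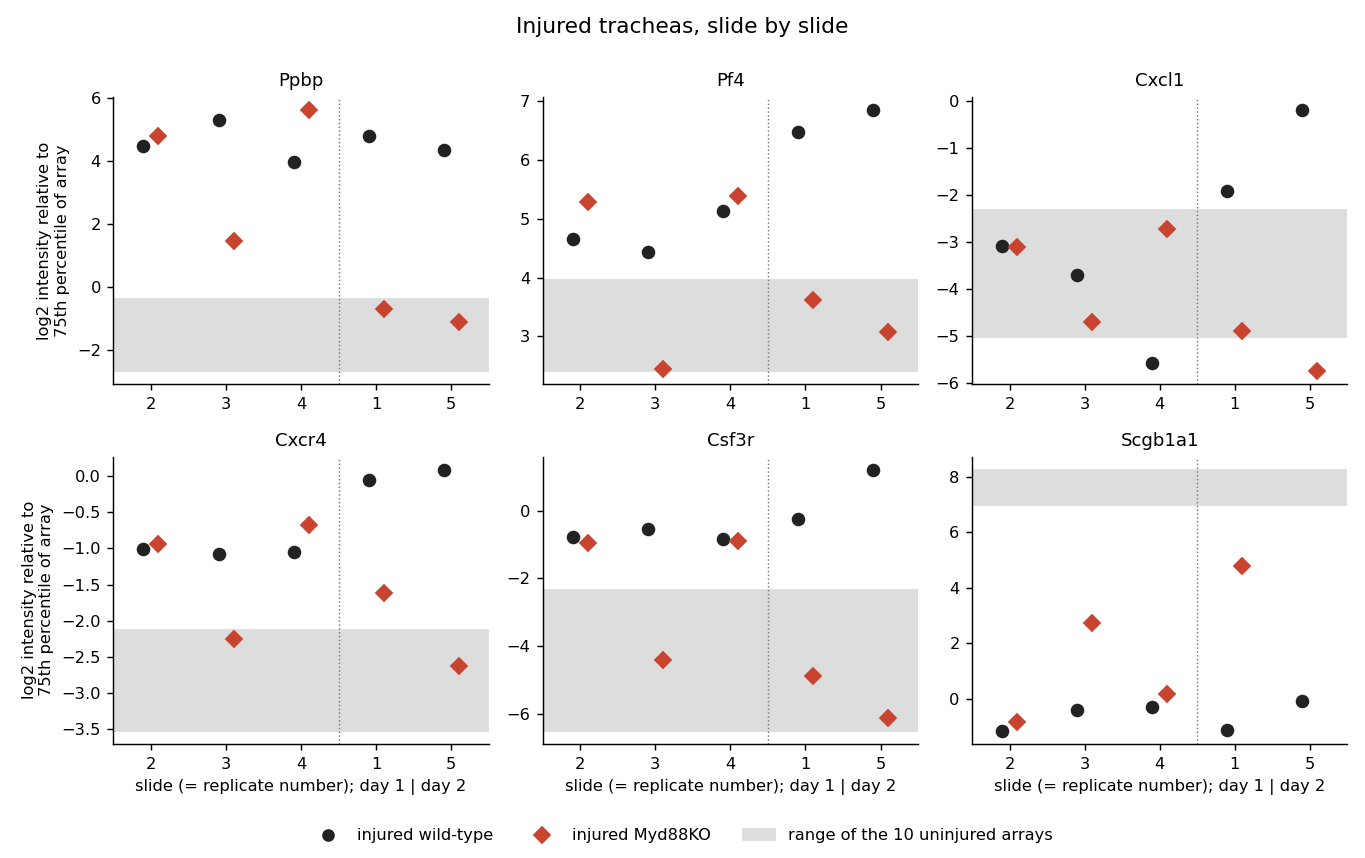
Levels of Ppbp, Pf4, Cxcl1, Cxcr4, Csf3r and Scgb1a1 (log2 relative to the 75th percentile, vertical axis) on the injured arrays of each slide, with slides 2, 3 and 4 (day 1) left of the dotted line and 1 and 5 (day 2) right of it; the grey band is the range of the 10 uninjured arrays, and Scgb1a1 of injured Myd88KO replicate 5 was left out as an outlier spot. For Ppbp the injured Myd88KO arrays of slides 1 and 5 (-0.71 and -1.13) lie in the grey band, whereas those of slides 2 and 4 (4.81 and 5.63) lie above the wild-type arrays beside them.

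Among the ligands of Cxcr2 other than Ppbp, Cxcl1 was well above background on 16 of the 20 arrays. Uninjured wild-type levels were -3.72, -4.12, -2.32, -4.83 and -3.53, and injured levels were -1.92, -3.09, -3.70, -5.57 and -0.19. Among these 10 arrays the injured ones held both the lowest and the highest value, and their SD of 2.01 was the largest of the 4 groups. In Myd88KO, Cxcl1 was at -3.77, -5.02, -4.21, -3.12 and -3.87 before and at -4.88, -3.11, -4.69, -2.71 and -5.74 after injury.

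The 3 Cxcl1 comparisons within these groups gave differences of 0.81 (SE 0.77) for injury in wild-type, -0.23 (SE 0.77) for injury in Myd88KO and -0.29 (SE 0.77) between uninjured genotypes, with adjusted p from 0.541 to 1.00. Between injured genotypes the difference was -1.33 (SE 0.77; adjusted p = 0.496). Its mean was 0.62 on day 1 (adjusted p = 0.784) and -4.26 on day 2 (adjusted p = 0.00437). It was negative on 4 of 5 slides, however. The positive mean of day 1 came from slide 4 (2.87), with -0.02 and -0.99 on slides 2 and 3. The wild-type injury difference was -0.36 on day 1 and 2.57 on day 2, and that in Myd88KO was 0.61 on day 1 and -1.49 on day 2. In both, the slides of day 1 held values of either sign. The difference between the injury responses was -1.04 (SE 1.08; adjusted p = 0.747), with 0.98 on day 1 and -4.06 on day 2. The pooled values of Cxcl1 therefore average slides that point in opposite directions.

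Cxcl2 was well above background on only 7 arrays, 4 from injured and 1 from uninjured wild-type mice and 2 from injured and 0 from uninjured Myd88KO mice, and was not tested. Its levels were -5.59, -6.69, -3.56, -7.19 and -5.34 in uninjured and -3.83, -5.45, -3.80, -4.37 and -1.43 in injured wild-type tracheas. The injured arrays tended to the upper end, with overlap, and lay above the mean of the controls on 5 of 5 arrays. Of the injured Myd88KO arrays, at -7.15, -3.86, -7.64, -2.01 and -6.60, replicates 2 and 4 were those above background. Most of these values lie near the limit of detection, and no fold is given. Cxcl1 and Cxcl2 are close relatives, and cross-hybridization between their probes was not tested.

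Cxcl5, a neutrophil attractant made by epithelial cells of the lung, was compared first between the genotypes. Levels in uninjured wild-type tracheas were 3.12, 1.1, 0.69, 1.75 and 1.98, and those in uninjured Myd88KO tracheas were -1.10, 0.57, 0.63, -1.62 and -2.53. All 5 Myd88KO arrays lay below all 5 wild-type arrays, which was so for 0.806% of all tested probes, but replicates 2 and 3 were only just below. The difference was -2.54 (SE 0.69; 5.82-fold lower; unadjusted p = 0.0015), with an adjusted p of 0.163, and so was not called. It was negative on 5 of 5 slides, from -4.51 to -0.06, with -1.32 on day 1 (adjusted p = 0.58) and -4.37 on day 2 (adjusted p = 0.229).

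After injury Cxcl5 stood at 1.06, 1.17, 0.81, -0.77 and 2.89 in wild-type and at -1.69, 0.34, -1.10, -0.11 and -2.16 in Myd88KO tracheas. The groups overlapped through wild-type replicate 4. The genotype difference was -1.97 (SE 0.69; adjusted p = 0.23), with -0.69 on day 1 and -3.90 on day 2. The injury differences of Cxcl5 were small beside the spread of the replicates, -0.70 (SE 0.69; 95% interval -2.13 to 0.74) in wild-type and -0.13 (SE 0.69; 95% interval -1.57 to 1.30) in Myd88KO, and the difference between these responses was 0.57 (SE 0.97; adjusted p = 0.861).

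The cytokines that induce these ligands were read from a list of 12 inducing cytokines and NF-kB feedback genes, of which 8 were tested and 0 called in any comparison. After injury in wild-type 1 of the 8 was higher and 1 lower with an unadjusted p under 0.05 (14.5% and 11.9% of all probes), and the median was -0.05. After injury in Myd88KO 2 were higher and 3 lower (7.32% and 12.2%), with a median of 0.10. Between genotypes 3 of the 8 were lower in uninjured (1.77% of all probes) and 4 in injured Myd88KO (8.09%) with such a p, and none was higher. Il1b, a major inducer that signals through Myd88, differed by 3.84 (SE 1.07; adjusted p = 0.0227) after injury in wild-type and by 2.40 (SE 1.07; adjusted p = 0.224) in Myd88KO. On the injured Myd88KO arrays it was at -1.88, 0.90, -2.85, 2.45 and -4.79, again with replicates 2 and 4 on top. Tnf was at -2.44, -2.41, -0.72, -2.47 and -1.74 in uninjured wild-type and at -4.11, -4.17, -3.78, -3.57 and -3.87 in uninjured Myd88KO tracheas. Like Cxcl5, it was lower on all 5 Myd88KO arrays without being called (-1.95, SE 0.51; adjusted p = 0.14), and Il1a differed in the same comparison by -2.54 (SE 0.71; adjusted p = 0.195), with only 2 of 5 Myd88KO arrays above background. After injury in wild-type Il1a differed by -1.85 (SE 0.71; adjusted p = 0.0959), with 2 of 5 injured arrays above background, and Tnf by -0.21 (SE 0.51). Il6 was well above background on 4 of 5 injured wild-type and 2 of 5 injured Myd88KO arrays and on none of the uninjured ones. Il17a was above background on 0, Csf3 on 1 and Csf2 on 5 of the 20 arrays. Nfkbiz, an NF-kB cofactor, differed by 0.91 (SE 0.26; adjusted p = 0.0583) after injury in Myd88KO and by -0.17 (SE 0.26) in wild-type, from a lower level in uninjured Myd88KO (-0.80 against wild-type, SE 0.26; adjusted p = 0.357), and by 0.28 (SE 0.26) between injured genotypes. The feedback genes Nfkbia (-0.50, SE 0.21; adjusted p = 0.189), Tnfaip3 (-0.59, SE 0.25; adjusted p = 0.199) and Zfp36 (-0.54, SE 0.23; adjusted p = 0.206) had negative values after injury in Myd88KO.

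Cxcl9 and Cxcl10, the ligands of Cxcr3, did not follow the same pattern. Cxcl9 was at -2.19, -2.59, -3.48, -2.56 and -3.31 in uninjured wild-type and at -0.62, -1.45, -1.44, -2.01 and -2.33 in uninjured Myd88KO tracheas. Levels were higher in Myd88KO on 5 of 5 slides, by 0.55 to 2.04, with overlap at the edges of the groups. The mean difference was 1.25 (SE 0.40; 2.39-fold; unadjusted p = 0.00517; adjusted p = 0.336), and it was nearly equal on day 1 (1.24) and day 2 (1.27).

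After injury Cxcl9 was at -2.16, -3.06, -2.92, -2.47 and -2.29 in wild-type, a difference of 0.24 (SE 0.40; 95% interval -0.59 to 1.08). In injured Myd88KO it was at -1.17, -3.07, -3.09, -3.75 and -3.04, where replicate 1 stood well above the other 4. The injury difference in Myd88KO was -1.25 (SE 0.40; adjusted p = 0.0882), lower on 5 of 5 slides (-1.74 to -0.55). On day 1 arrays alone it was -1.67 (adjusted p = 0.00575, a call) and on day 2 arrays -0.63 (adjusted p = 0.792). The injured genotypes differed by -0.24 (SE 0.40; adjusted p = 0.849), with -0.49 on day 1 and 0.12 on day 2, and the difference between the responses was -1.50 (SE 0.56; adjusted p = 0.395).

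For Cxcl10, uninjured levels were -1.05, -1.64, -3.46, -2.05 and -2.0 in wild-type and -0.50, -1.05, -1.0, -1.88 and -2.71 in Myd88KO. Injured levels were 1.46, 0.07, -2.09, -0.49 and 0.61 in wild-type, but -0.39, -1.89, -2.58, -1.97 and -3.09 in Myd88KO. Wild-type replicate 3 was low both before and after injury, and on each slide the injured wild-type array was above its own control. The wild-type injury difference of 1.95 (SE 0.61; 3.86-fold) had an adjusted p of 0.0403. It was 1.37 to 2.61 within slides, and with the slide as a block the adjusted p was 0.00803, a call. Leaving out injured wild-type replicate 3 gave 2.45 and an adjusted p of 0.00975, also a call.

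Injury in Myd88KO gave a Cxcl10 difference of -0.56 (SE 0.61; 95% interval -1.83 to 0.71). The injured genotypes differed by -1.89 (SE 0.61; 3.72-fold lower; adjusted p = 0.19), with injured Myd88KO lower on 5 of 5 slides (-3.70 to -0.48), -1.31 on day 1 and -2.77 on day 2. The difference between the injury responses was -2.51 (SE 0.86; unadjusted p = 0.0087; adjusted p = 0.391), and it was close in size on day 1 (-2.39) and day 2 (-2.69), unlike that of Ppbp and Pf4. The uninjured genotypes differed by 0.61 (SE 0.61; adjusted p = 1.00).

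From a list of 9 interferon targets, 8 genes were tested and 0 called in any comparison. After injury in wild-type all 8 differences were positive, 5 with an unadjusted p under 0.05 (14.5% of all probes were higher with such a p), and the median was 0.62. In Myd88KO 2 of the 8 were positive and the median was -0.28. Between uninjured genotypes, where Cxcl9 was higher in Myd88KO on 5 of 5 slides, all 8 were positive, 2 with such a p (3.82% of all probes), and the median was 0.36. For the difference between the responses 7 of 8 were negative and 5 had an unadjusted p under 0.05 (6.96% of all probes were lower with such a p), with Mx1 (0.37, SE 0.64) as the exception. Ifit3, an antiviral protein, showed -1.86 (SE 0.49; adjusted p = 0.39) and Isg15, a ubiquitin-like modifier, -1.62 (SE 0.47; adjusted p = 0.391). Ifng itself was well above background on 3 uninjured and 1 injured Myd88KO arrays and on no wild-type array.

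Since Cxcl9 and Cxcl10 attract T cells and NK cells, 10 markers of these were read beside them. None of the 9 tested was called. In uninjured Myd88KO against wild-type, 3 of the 9 had an unadjusted p under 0.05 and were higher (3.82% of all probes), among them Nkg7, a protein of cytotoxic granules (0.92, SE 0.26; adjusted p = 0.197), and Ncr1, an NK cell receptor, was above background on no array. In wild-type, where Cxcl9 differed by 0.24 after injury, 2 of the 9 were positive, with a median of -0.26. Unadjusted p was under 0.05 for 1 of the 9, which was lower (11.9% of all probes). After injury in Myd88KO, where the Cxcl9 difference was -1.25, all 9 values were negative with a median of -0.65, and 2 had an unadjusted p under 0.05 (12.2% of all probes were lower with such a p), among them Nkg7 (-0.94; adjusted p = 0.0519). Their summed linear level was 0.568 to 2.48 in uninjured and 0.813 to 1.07 in injured wild-type tracheas, and 1.20 to 2.92 in uninjured and 0.848 to 1.17 in injured Myd88KO tracheas. The part of such cells in the Cxcl9 and Cxcl10 values was not tested.

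**Figure D4:**
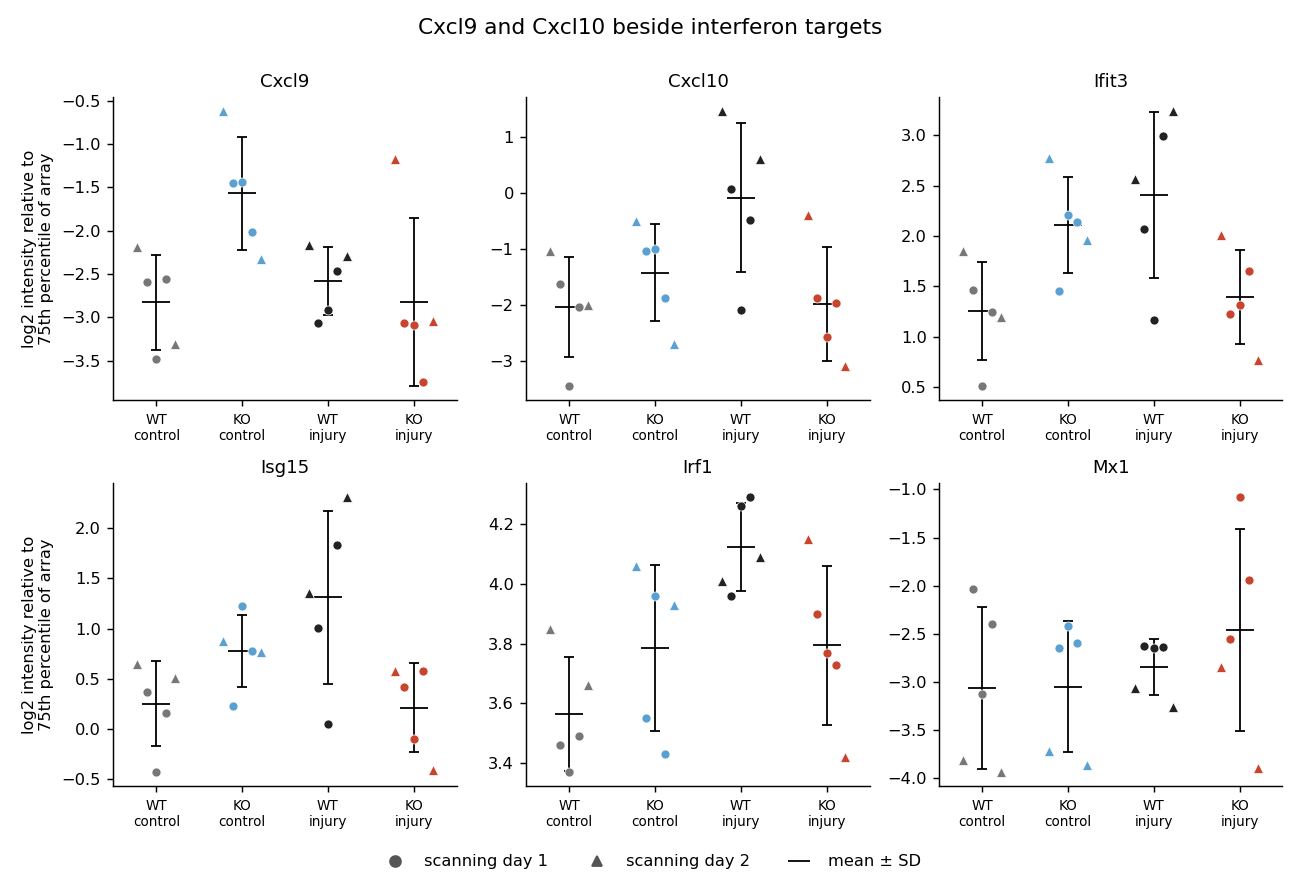
Levels of Cxcl9 and Cxcl10 and of 4 interferon targets (Ifit3, Isg15, Irf1 and Mx1; log2 relative to the 75th percentile, vertical axis) in the 4 groups, with circles and triangles for scanning days 1 and 2 and bars for the mean ± SD. Mean Cxcl10 is -2.04, -1.43, -0.09 and -1.98 from left to right, and mean Ifit3 is 1.26, 2.11, 2.41 and 1.4.

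Cxcl12 has 2 probes, which the array assigns to transcript variant 2 (chr6:117207552-117207611) and transcript variant 1 (chr6:117200799-117200858), and they disagreed. The variant 1 probe was at 0.23, -0.34, -0.52, -0.07 and -0.33 in uninjured and at 1.44, 0.45, 0.20, 0.01 and 0.82 in injured wild-type tracheas. Injured arrays were above their own controls on 5 of 5 slides, with overlap between the groups. The difference was 0.79 (SE 0.23; 1.73-fold; adjusted p = 0.026). In Myd88KO the variant 1 probe was at 0.13, -0.05, -0.07, -0.30 and 0.25 before and at -0.22, 0.03, -0.62, -0.03 and -0.43 after injury, a difference of -0.24 (SE 0.23; adjusted p = 0.596).

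Between injured genotypes the variant 1 probe of Cxcl12 had the lowest p of the member probes, with a difference of -0.84 (SE 0.23; unadjusted p = 0.00143; adjusted p = 0.107). Myd88KO was lower on 5 of 5 slides, from -1.65 to -0.04, with -0.43 on day 1 and -1.45 on day 2. The difference between the responses was -1.03 (SE 0.32; adjusted p = 0.391). The variant 2 probe ranged from 1.85 to 3.41 over all arrays and differed by 0.03 (SE 0.22; 95% interval -0.43 to 0.48) after injury in wild-type, by -0.53 (SE 0.22; adjusted p = 0.184) in Myd88KO and by -0.35 (SE 0.22; adjusted p = 0.529) between injured genotypes, with -0.15 on day 1 and -0.67 on day 2. On the injured Myd88KO arrays it was at 1.85, 2.62, 2.29, 2.4 and 3.16, replicates 1 and 5 being the lowest and the highest. Over the 20 arrays the 2 probes had a Pearson r of 0.356 (0.354 within groups).

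Stromal and vascular markers were read beside the variant 1 probe. Of 8 fibroblast markers tested, 1, Thy1, was called after injury in wild-type (1.08, SE 0.22; adjusted p = 0.00409), where 3.24% of all probes were called higher. In that comparison 5 of the 8 had an unadjusted p under 0.05, all higher (14.5% of all probes). Between injured genotypes 5 had such a p, all lower in Myd88KO (8.09% of all probes), with 0 called. Their summed level was 423 to 694 in uninjured and 581 to 1050 in injured wild-type tracheas, and 399 to 699 in uninjured (4 arrays, since the spot of Dcn was an outlier in replicate 3) and 350 to 663 in injured Myd88KO tracheas. Of 7 endothelial markers, 0 were called, and 3 had an unadjusted p under 0.05 between injured genotypes, all lower (8.09% of all probes). Endothelial sums were 14.6 to 21.2 before and 21.9 to 36.9 after injury in wild-type, and 17.8 to 24.3 before and 13.3 to 25.5 after injury in Myd88KO. Their part in the Cxcl12 values was not tested.

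Cxcl14, a chemokine made constitutively by many epithelia, varied little. Its levels were 0.85, 0.84, 0.27, 0.47 and 0.79 in uninjured and 1.52, 1.42, 0.98, 0.49 and 1.49 in injured wild-type tracheas, and 1.35, 0.90, 1.20, 0.75 and 1.52 in uninjured and 0.53, 1.41, 0.24, 1.44 and 1.44 in injured Myd88KO tracheas. Differences were 0.54 (SE 0.26; 95% interval 0.00 to 1.07) for injury in wild-type, -0.13 (SE 0.26) for injury in Myd88KO, 0.50 (SE 0.26) between uninjured and -0.17 (SE 0.26) between injured genotypes. None was called, the adjusted p running from 0.19 to 0.938. Between injured genotypes Cxcl14 was at 0.07 on day 1 and -0.52 on day 2, and for injury in Myd88KO at 0.08 and -0.45. The day 1 values average slides of both signs. On slides 2, 3 and 4 they were -0.02, -0.73 and 0.94 between injured genotypes, and 0.51, -0.96 and 0.68 for injury in Myd88KO.

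Cxcl16 also has 2 probes, both for the same transcript, but their Pearson r was only 0.359 over the 20 arrays and 0.0938 within groups. After injury in wild-type both gave positive differences without a call. On the brighter probe the wild-type levels were 0.91, 0.16, 0.24, 0.30 and 0.84 before and 1.33, 0.99, 0.50, 0.66 and 1.37 after injury, and the difference was 0.48 (SE 0.21; adjusted p = 0.153). The other probe gave 0.74 (SE 0.37; adjusted p = 0.214). Between injured genotypes the difference was -0.52 (SE 0.21; adjusted p = 0.314) on the brighter probe, with -0.24 on day 1 and -0.93 on day 2. On the dimmer probe it was -0.47 (SE 0.37; adjusted p = 0.641), with -0.01 on day 1 and -1.15 on day 2, so that this value rests mostly on slides 1 and 5. The brighter probe was also at -0.61 on slide 3, a slide of day 1. The injured Myd88KO arrays were at 0.57, 0.77, -0.11, 0.77 and 0.27 on the brighter probe. On the dimmer probe they stood at -1.04, 0.61, -0.63, 0.66 and -1.72, with replicates 2 and 4 highest as for Ppbp. Injury in Myd88KO gave 0.08 (SE 0.21; adjusted p = 0.885) on the brighter probe, with 0.21 on day 1 and -0.13 on day 2. On the dimmer probe it gave 0.46 (SE 0.37; adjusted p = 0.532), with 0.88 on day 1 and -0.17 on day 2. The difference between the injury responses on the dimmer probe was -0.28 (SE 0.52; adjusted p = 0.876), with 0.18 on day 1 and -0.97 on day 2.

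Of 10 CXC receptors and related decoy receptors, some of them for ligands outside the 10 members, 8 were tested, and 2 were called after injury in wild-type, Cxcr4 and Ackr1, both higher (3.24% of all probes). Between injured genotypes 3 of the 8, Cxcr2, Cxcr4 (-1.0, SE 0.35; adjusted p = 0.23) and Ackr1 (-0.92, SE 0.28; adjusted p = 0.164), had an unadjusted p under 0.05 and were lower in Myd88KO (8.09%), with 0 called. Cxcr4, the receptor of Cxcl12, was at -2.22, -3.02, -3.52, -2.99 and -2.48 before and at -0.05, -1.01, -1.08, -1.05 and 0.09 after injury, with no overlap. This is a difference of 2.23 (SE 0.35; adjusted p = 0.000733). In Myd88KO Cxcr4 differed by 0.89 (SE 0.35; adjusted p = 0.166), and the injured arrays were at -1.62, -0.94, -2.25, -0.68 and -2.63. Ackr1, which binds many inflammatory chemokines on venules and red cells, differed by 1.35 (SE 0.28; adjusted p = 0.00423) in wild-type and by 0.41 (SE 0.28; adjusted p = 0.449) in Myd88KO. Neither was called in the other comparisons.

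Cxcr2, the receptor of Cxcl1, Cxcl2, Cxcl5 and Ppbp, was well above background on 5 injured wild-type arrays, 3 uninjured wild-type, 2 injured Myd88KO and 1 uninjured Myd88KO array. It differed by 2.68 (SE 0.93; adjusted p = 0.0647) after injury in wild-type and by -2.91 (SE 0.93; adjusted p = 0.188) between injured genotypes. Cxcr1 was above background on no array and Cxcr5, the receptor of Cxcl13, on 6. Cxcr3 (0.36, SE 0.29), Cxcr6 (0.20, SE 0.27), Ackr2 (-0.05, SE 0.24), Ackr3 (-0.17, SE 0.16) and Ccrl2 (0.15, SE 0.23) had adjusted p from 0.459 to 0.927 after injury in wild-type.

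Of 5 further CXC ligands on the array, 4 were tested and 0 called. Cxcl3, another Cxcr2 ligand, was at -2.97, -4.39, -2.28, -3.80 and -2.64 before and at 0.41, -0.70, 0.21, -1.31 and 2.73 after injury in wild-type, without overlap, and its difference was 3.48 (SE 1.26; adjusted p = 0.0771). On the injured Myd88KO arrays Cxcl3 was at -4.48, 0.25, -4.14, 3.22 and -6.52, with replicates 2 and 4 highest as for Ppbp, Pf4 and Cxcl2. Cxcl15, lungkine, was higher in Myd88KO by 0.94 (SE 0.31; adjusted p = 0.373) when uninjured and by 1.24 (SE 0.31; adjusted p = 0.0692) when injured. Cxcl13, the B cell attractant, and Cxcl17, a mucosal chemokine, differed by -1.34 (SE 0.65) and -0.45 (SE 0.28) after injury in wild-type, with adjusted p of 0.191 and 0.331. Cxcl11 was above background on 3 of 20 arrays.

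Markers of the cells that carry Cxcr2 and of macrophages were read beside the ligands. Of 12 neutrophil markers, 7 were tested and 2 called higher after injury in wild-type (3.24% of all probes), Mmp9 (2.22, SE 0.46; adjusted p = 0.00419) and Csf3r, the receptor for granulocyte colony-stimulating factor. Csf3r was well above background on 5 injured and 2 uninjured wild-type arrays. It passed the filter with the minimum of 10 arrays, most of them injured. Its fitted difference of 4.05 (SE 0.83; adjusted p = 0.0038) is set against a group mostly near background and has no firm size. The injured Myd88KO arrays were at -4.89, -0.96, -4.42, -0.91 and -6.13, where replicates 2 and 4 came just below the injured wild-type range of -0.85 to 1.21 and the other 3 far below it. Mmp8 was well above background on 5 injured wild-type and 2 injured Myd88KO arrays and on no uninjured one. After injury in Myd88KO 0 of the 7 were called (0.376% of all probes), and the median was 2.19 against 2.77 in wild-type. Unadjusted p was under 0.05 for 3 in Myd88KO, all higher (7.32% of all probes), and for 5 in wild-type, also all higher (14.5%). Between uninjured genotypes 3 of the 7 had an unadjusted p under 0.05, all lower in Myd88KO (1.77% of all probes), with 0 called: S100a8 (-2.39, SE 1.12; adjusted p = 0.869), S100a9 (-3.17, SE 1.12; adjusted p = 0.492), both subunits of calprotectin, and Csf3r, which was well above background on 2 wild-type and 0 Myd88KO arrays there, so that its value has no firm size. This is the comparison in which Cxcl5 lay lower on all Myd88KO arrays. Between injured genotypes 4 of the 7 had such a p, all lower (8.09% of all probes), the median was -1.72 and 0 were called, beside the lower Ppbp, Pf4 and Cxcl5 values there. The granule genes Ngp and Elane were above background on no array and Camp on 2, and no probe was found under the name Ly6g. The sum over the 11 markers found was mostly Ltf, a protein that airway glands also secrete (60.3% to 99.9% of it), and was 347 to 612, 441 to 721, 481 to 658 and 373 to 693 (controls of wild-type, then of Myd88KO, then the injured groups likewise).

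Of 10 macrophage markers, 4 were called after injury in wild-type, all higher (3.24% of all probes): Cd68 (3.27, SE 0.53; adjusted p = 0.000907), Clec7a (3.06, SE 0.66; adjusted p = 0.00507), Adgre1 (2.03, SE 0.42; adjusted p = 0.00408) and Csf1r (1.55, SE 0.36; adjusted p = 0.0077). None was called in Myd88KO (0.134% of all probes were called higher), where the median of the list was 1.00 against 1.79 in wild-type. Still, 6 of the 10 had an unadjusted p under 0.05 there and were higher (7.32% of all probes), against 7 in wild-type (14.5%). Between injured genotypes 4 of the 10 had an unadjusted p under 0.05, all lower in Myd88KO (8.09% of all probes), with a median of -0.80 and 0 called. Cd68 was at -0.27, 2.51, 0.65, 2.32 and -1.27 on the injured Myd88KO arrays, which is the order of replicates seen for Ppbp apart from the top pair. Lyz2, whose difference after injury in wild-type was -0.06 (SE 0.21), made up 80.7% to 95.6% of the summed level, so that the sum does not follow the called markers. Summed levels were 315 to 557 before and 346 to 539 after injury in wild-type, and 288 to 497 before and 294 to 471 after in Myd88KO. Of 10 airway epithelial markers, Scgb1a1 (-7.91, SE 0.69; adjusted p = 1.05e-05) and Bpifa1 (-2.24, SE 0.31; adjusted p = 0.000372) fell in wild-type. In Myd88KO, where the outlier spots of replicate 5 were left out of the fit, Scgb1a1 fell by 6.24 (adjusted p = 0.00069) and Bpifa1 fell by 2.36 (adjusted p = 0.00287). Over all probes 2.03% were called lower in wild-type and 0.242% in Myd88KO. The sum over the 10 was 1080 to 1690 before and 726 to 885 after injury in wild-type, and was 1130 to 1630 before and 664 to 959 after in Myd88KO (4 arrays, without replicate 5). No cartilage, skeletal muscle or thyroid marker was called. The part of each of these cell types in the chemokine values was not tested.

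The member probes did not vary as a single block. Over the 20 arrays, which fall into 4 groups and share their scaling, Ppbp and Pf4 had a Pearson r of 0.827, and 0.531 after the group means were subtracted. Pf4 and the brighter Cxcl16 probe had r = 0.837 (0.801 within groups), and the variant 1 probe of Cxcl12 and the same Cxcl16 probe 0.827 (0.779). With the dimmer Cxcl16 probe these were lower, 0.55 (0.276) for Pf4 and 0.313 (0.0575) for the Cxcl12 probe, whereas Ppbp had 0.738 (0.691) with the dimmer and 0.585 (0.363) with the brighter probe. For Cxcl1 and Cxcl2 r was 0.732 (0.745). Cxcl9 went against Ppbp (-0.412, and -0.519 within groups) and with Cxcl10 (0.491, and 0.728 within groups). Cxcl5 was loosely tied to the others, its highest r being with Cxcl1 (0.473). These are descriptions of 20 arrays from shared groups and slides.

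**Figure D5:**
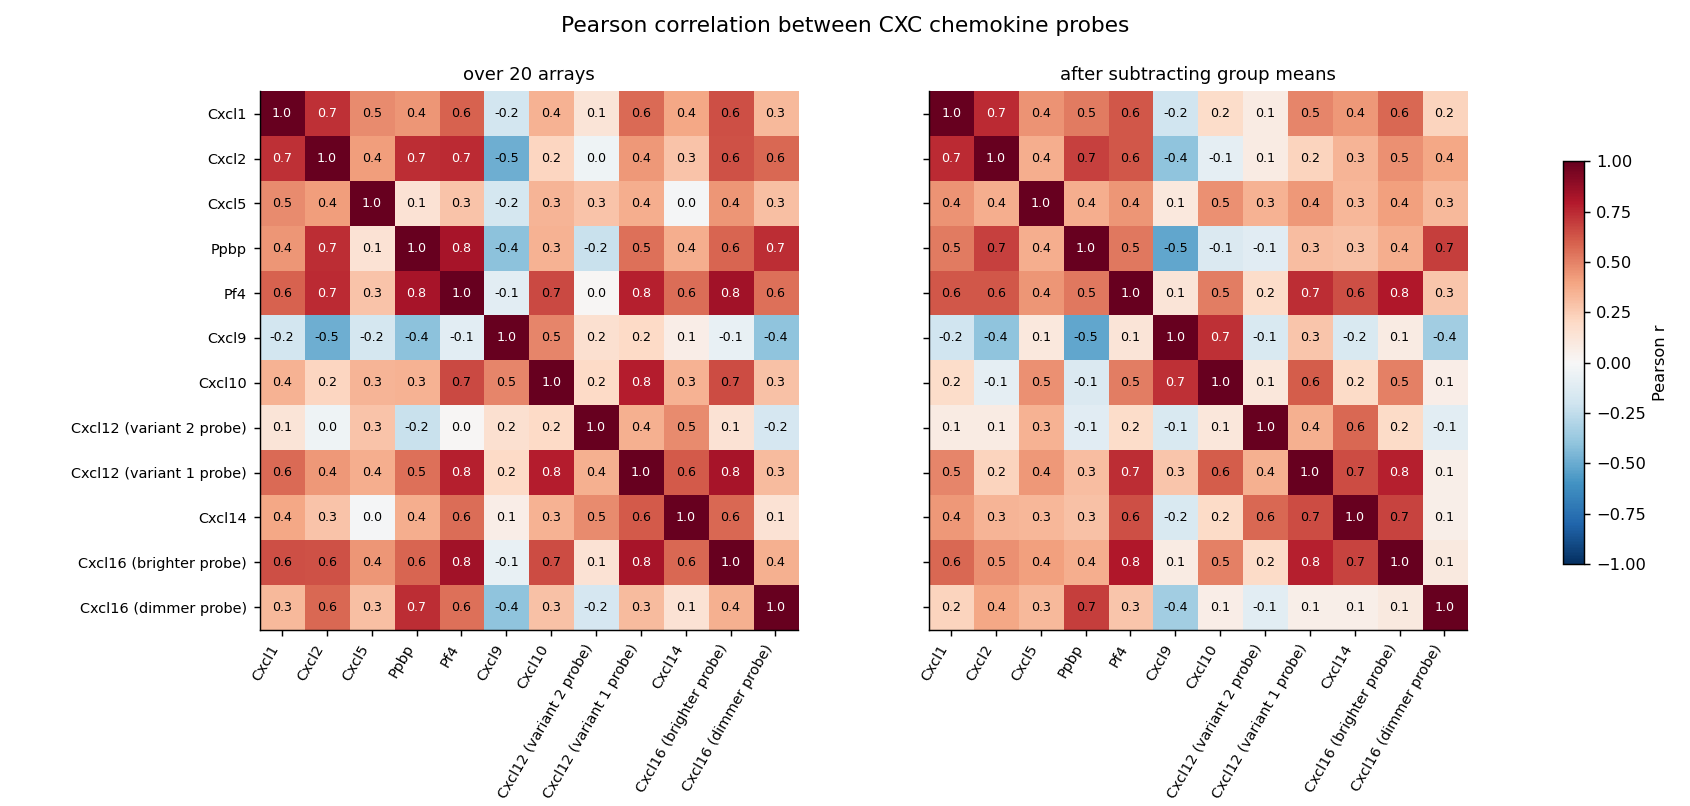
Pearson correlation between the 12 CXC chemokine probes over the 20 arrays (left) and after the mean of each group was subtracted (right); each cell gives r, coloured from -1 (blue) to 1 (red). Ppbp and Pf4 fall from 0.827 to 0.531 when group means are removed, and Cxcl9 and Cxcl10 go from 0.491 to 0.728.

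For each tested gene, the pair of other named genes most like it over the 20 arrays was taken, using the brightest probe. Ppbp was most like Mcm6 (r = 0.97) and Sting1 (0.969), and Pf4 was most like Fxyd5 (0.979) and Lilra6 (0.978). Because they were picked by likeness to called members over the same arrays, their own injury differences in wild-type are a description: Mcm6, a subunit of the replicative helicase, by 1.4, Sting1, the receptor for cyclic dinucleotides, by 1.55, Fxyd5 by 1.61 and Lilra6 by 2.35. In Myd88KO they differed by 0.85, 0.85, 0.45 and 1.20.

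The genes most like Cxcl10 were Rsad2 (r = 0.922) and Epsti1 (0.848), both known as interferon targets, whereas those most like Cxcl9 were 2410022M11Rik (0.872) and Hexim2 (0.836). Rsad2, picked in the same way, differed by 1.60 after injury in wild-type and by -0.46 in Myd88KO. Cxcl1 was most like Ugcg (0.818) and Tifa (0.81), Cxcl5 most like Zfp429 (0.835) and Cdk17 (0.827), and Cxcl14 most like Sh3kbp1 (0.827) and Fth1 (0.813). The variant 2 probe of Cxcl12 was most like Tmed10 (0.936) and Zmpste24 (0.856), and the brighter Cxcl16 probe most like Ptpn1 (0.918) and Fnip2 (0.907). After subtraction of group means the r of these 18 pairs was 0.651 to 0.958.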

How the data were processed

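Total RNA of 20 whole tracheas was hybridised to single-colour Agilent arrays. The labels give 600 ng labelled per array, and the study's methods a larger input. Per the file headers, the authors extracted the deposited intensity values with Feature Extraction 9.5.1.1. Here, control and outlier spots (1960 values) were left out, processed intensities were put on the log2 scale, spots of a probe averaged, and the 75th percentile of each array subtracted. The authors also deposited a value table, which equalled the scanner intensities (ratio 0.995 to 1) and was used as an alternative. Probes well above background on at least 10 of 20 arrays were tested with limma 3.58.1 in R 4.3.3 (lmFit, eBayes; 4 groups in 1 fit), with Benjamini-Hochberg adjustment per comparison and calls under 0.01. The code was tested on simulated data.

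Members and lists were chosen with earlier results of these data known. Named were all members, receptors and other CXC ligands, called genes and undetected markers of the other lists, Myd88 and the pair of genes most like each member; Il1b, Tnf, Il1a, Il6, Csf2, Nfkbiz, Nfkbia, Tnfaip3, Zfp36, Ifit3, Isg15, Irf1, Mx1, Ifng, Nkg7, Clec1b, Itgb3, Itga2b, Gp9, Lyz2, S100a8, S100a9, Ltf and Dcn were named after their values were seen. The interferon list counts 9 genes, and 1 further interferon target is not reported here. Summed list levels are linear intensities relative to the 75th percentile, over the brightest probe of each gene, and are not given for an array on which one of these spots was an outlier. Replicate numbers coincide with slides, so they pair the arrays; same-numbered arrays of the groups compared correlated in their deviations from group means at r of -0.219 to 0.476. Replicates are separate mice per the study's methods. Gene names were updated by accession for 22951 probes. The number of arrays limits the precision. Alternatives covered background correction, normalization, filters, slide and day blocks, array weights, the samples fitted, a plain 2-group test per probe (the pairwise form of the one-way parametric test that the study's methods name) and leaving out each array.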

Additional observations from a re-analysis of the deposited data

Results flagged for a closer look

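Among 48 sets of 5 arrays (12 probes in 4 groups), 1 held an array that stood apart by Dixon's criterion. Cxcl9 in injured Myd88KO replicate 1 was at -1.17, the nearest other array of the group at -3.04 and the lowest at -3.75, so that the gap took up 0.723 of the range (critical value 0.71). Chance flags about 1 in 20 such sets.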

How the results depend on the processing

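Of 1787 values under alternatives, 1767 did not change call, 8 lost a call (all Pf4 after injury in wild-type), 12 gained one, and 43 uncalled values but 0 called values changed sign. The 1767 include the values of Cxcl2, which was untested in the main fit and so had no call to change. Those values were counted as unchanged because they moved by less than the within-group SD. After injury in wild-type the 2 member probes called became 1 under a plain 2-group test per probe, the pairwise form of the parametric test in the study's methods, after Benjamini-Hochberg (Pf4 at 2.52, adjusted p = 0.0205), 1 on day 1 arrays alone, 3 with the replicate block, and 1 to 3 when each array was left out. After injury in Myd88KO the 0 calls became 2 with array weights (Ppbp 4.75, adjusted p = 0.000512; Cxcl9 -1.58, adjusted p = 0.00276), 2 on day 1 arrays alone, and 0 to 1 when each array was left out. Between uninjured genotypes 1 probe, Cxcl5, passed the plain test without adjustment, and 0 when each array was left out. Between injured genotypes 3 (Cxcl1, Ppbp and Pf4), and for the difference between responses 1 (Ppbp), were called on day 2 arrays alone, and 0 when each array was left out. These day-wise fits were chosen after seeing the data, and the cause of each change was not tested.

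With the replicate block, 3 member probes (Ppbp, Pf4 and Cxcl10) were called after injury in wild-type and 0 in each other comparison, so that the pairing changed no call besides that of Cxcl10. Over all probes, the 1372 called after injury in wild-type became 2106 with the day as a block, 2598 with array weights, 3800 under the unadjusted plain test, 822 and 664 on day 1 and day 2 arrays, and 665 to 1843 without 1 array. The 98 called in Myd88KO became 60 with no filter, 361 with the day block, 1901 with array weights, 1275 under the unadjusted plain test, 1061 on day 1, 0 on day 2, and 6 to 1075 without 1 array. They were 0 when only the groups compared were fitted by limma (4343 had a raw p under 0.05) and 0 under the adjusted plain test (4111). The 100 between uninjured genotypes became 180 with array weights, 46 and 743 under the adjusted and unadjusted plain test, 62 on day 1 and 3 on day 2. The 99 between injured genotypes became 38 with only the groups compared, 21 and 602 under these tests, 65 on day 1 and 1251 on day 2. For the difference between responses, 0 became 1 with the replicate block, 2 with the day block, 3 with array weights and 148 on day 2. Signal near background limits Cxcl2, Cxcl1, Cxcr2 and Csf3r.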
